A study of Mus musculus with 16 samples.

Results

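The genes described here are 10 transcripts by which monocytes and lung macrophages are commonly recognised, chosen by gene symbol from the 54532 genes that each table lists. They were read in RNA-seq of lung endothelial cells (ECs) that had been isolated with magnetic beads, in a pair of experiments with 16 libraries in all. In the first, male WT C57/BL6J mice of 8 weeks received LPS at 10 mg/kg (n = 6) or saline without LPS (n = 4). In the second, Fgfr1 loxP/loxP mice (n = 3) and their littermates Fgfr1 iΔEC/iΔEC (n = 3) all received 2 mg/kg LPS. LPS (lipopolysaccharide) comes from the cell wall of Gram-negative bacteria. It was given into the trachea and the cells were taken 24 h later in every group. Fgfr1 iΔEC/iΔEC mice carried the same floxed alleles together with VE-cadherin-CreERT2, a recombinase that is active in ECs after tamoxifen, and both genotypes were given tamoxifen. The second experiment held no mice without LPS. The tables of the experiments were normalised separately, so levels were compared within each of them only.

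The ECs were obtained by removing cells that carry CD45, the leukocyte surface protein encoded by Ptprc, and then selecting cells that carry CD31, encoded by Pecam1. CD31 is also carried by monocytes and by some macrophages. Pecam1 was read at 400.3 ± 81.5 FPKM in the saline group and 358 ± 76.8 in the LPS group (SD, n = 4 and 6), where FPKM counts fragments per kilobase of a gene, relative to the size of the library. Ptprc was read in every library, at 6.97 ± 3.13 FPKM in the saline group and 34.6 ± 11.4 in the LPS group. Its log2 fold change was 2.19 (SE 0.28, limma, adjusted p = 0.000112). Leukocyte transcripts were therefore present in the isolated fraction of both groups. The 10 genes of an endothelial list summed to a median of 3832 FPKM in the saline group and 2956 in the LPS group, and the 14 genes of a list common to monocytes and macrophages to 145 and 3670. In LPS replicate 1 the endothelial list summed to 1477 FPKM and the phagocyte list to 4969. In bulk RNA, fewer cells of a type and less RNA per cell cannot be told apart. Fgfr1, the floxed gene, was read at 2.90, 2.91 and 2.59 FPKM in the loxP/loxP libraries and at 0.683, 1.41 and 1.15 in the iΔEC/iΔEC libraries, with no overlap. Its log2 fold change was -0.88 (SE 0.16), but the adjusted p over all genes in limma was 0.960.

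Lung macrophages fall into alveolar macrophages, which reside in the airspace and clear surfactant and particles, and interstitial macrophages of the tissue. When the lung is inflamed, classical monocytes that carry Ly6C enter from the blood and turn into macrophages, whose transcripts come to resemble those of resident cells over days. Marco and Mrc1 encode the scavenger receptor MARCO and the mannose receptor, Chil3 a secreted chitinase-like protein, Ear2 a secreted ribonuclease of the eosinophil-associated family, and Fabp1 a fatty acid binding protein. These 5 genes stand here as markers of resident cells. Chil3 is also known from classical monocytes and neutrophils, and Ear2 from eosinophils and nonclassical monocytes, so the grouping is loose. Lyz2 (lysozyme), Cd68 (a lysosomal glycoprotein) and Adgre1 (the adhesion receptor F4/80) are shared by monocytes and macrophages. Ly6c2, a surface protein of classical monocytes, and Ms4a7, a membrane protein of monocyte-derived and interstitial macrophages, stand as markers of recruited cells.

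The members lie on 10 different chromosomes, with positions on GRCm38. Marco lies on chromosome 1 from 120474538 to 120505024, Mrc1 on chromosome 2 from 14229392 to 14332057, Chil3 on chromosome 3 from 106147554 to 106167564, Fabp1 on chromosome 6 from 71199827 to 71205023 and Lyz2 on chromosome 10 from 117277331 to 117282321. Cd68 lies on chromosome 11 from 69664213 to 69666153, Ear2 on chromosome 14 from 44102654 to 44103534, Ly6c2 on chromosome 15 from 75108158 to 75111970, Adgre1 on chromosome 17 from 57358691 to 57483527 and Ms4a7 on chromosome 19 from 11321039 to 11336146. All are annotated as protein coding, and the values are sums over their exons. Mrc1 overlaps Mir511 on its own strand and Ear2 overlaps Gm49101 on the opposite one.

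Macrophage promoters often hold the PU-box, the site of the transcription factor PU.1 encoded by Spi1. The 250 bases before the start site are printed for 3 members that hold its core and that behaved differently after LPS: Marco and Cd68, which rose, and Mrc1, which did not pass the test. The sequences are those of RefSeq on GRCm38.p6, each 5′ to 3′ on the strand of its gene, for Marco at chr1:120505025-120505274 (minus strand), for Cd68 at chr11:69666171-69666420 (minus strand) and for Mrc1 at chr2:14229164-14229413 (plus strand). Capitals mark GAGGAA or its reverse complement.
Marco: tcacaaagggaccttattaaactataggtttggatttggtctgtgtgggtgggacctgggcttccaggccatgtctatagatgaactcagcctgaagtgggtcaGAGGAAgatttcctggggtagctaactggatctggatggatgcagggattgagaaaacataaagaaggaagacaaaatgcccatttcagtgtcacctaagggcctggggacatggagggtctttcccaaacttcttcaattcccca
Cd68: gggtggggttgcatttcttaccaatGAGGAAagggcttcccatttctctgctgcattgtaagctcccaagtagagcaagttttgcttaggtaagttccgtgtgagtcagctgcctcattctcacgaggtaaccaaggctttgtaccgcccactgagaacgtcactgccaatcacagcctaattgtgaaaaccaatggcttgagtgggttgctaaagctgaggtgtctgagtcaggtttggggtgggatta
Mrc1: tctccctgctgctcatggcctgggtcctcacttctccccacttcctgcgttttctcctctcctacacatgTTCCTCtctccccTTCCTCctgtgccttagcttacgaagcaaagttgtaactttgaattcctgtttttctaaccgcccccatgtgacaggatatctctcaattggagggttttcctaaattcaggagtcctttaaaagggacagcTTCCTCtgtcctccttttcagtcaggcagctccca
The core GAGGAA on either strand was found once in the windows of Marco and Cd68 and 3 times in that of Mrc1. Over all members, 9 had an entry, with 11 promoters between them. Of these 6 held the core, against 23.3% of 32851 promoters of the same length. The windows of Ly6c2 overlap and share a match, and by gene 5 of 9 members held the core, against 25.85% of 27025 genes. Spi1 itself was read at 9.62 ± 6.89 FPKM in the saline group (6.28 ± 2.07 without saline replicate 1, which is described next) and 212 ± 66.5 in the LPS group. A match is a run of letters and no evidence of binding, and promoters with and without it belonged to genes that rose, among the latter Lyz2, Chil3 and Ear2.

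One library stood apart within the saline group. Saline replicate 1 had no read on Marco and the lowest Ear2, Mrc1 and Fabp1 of the saline group, but the highest Lyz2, Cd68, Adgre1 and Ly6c2. The 15 genes of a classical monocyte list summed to 407 FPKM in it and to 97.7, 79.3 and 78.3 in the other saline libraries, and the 11 genes of a neutrophil list to 1438 against 80.5, 325 and 85.5. It also had the fewest reads on genes, 13478726, where the other saline libraries had 16184866 to 18807007 and the LPS libraries 17840221 to 19043015. Where leaving it out changed a call, turned a direction or moved a fold change by over 1.5 times for a gene named in LPS over saline, the log2 fold change without it is given too.

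To find which of these transcripts were altered by 10 mg/kg LPS, log2(FPKM + 1) was compared between the LPS and the saline group with limma. Of 14893 genes tested, 11.9% were called higher and 6.79% lower, at an adjusted p at or under 0.05 and a log2 fold change of at least 1 in size. Of the 10 members 9 were tested: 7 rose, Fabp1 fell and Mrc1 did not pass. The median of their log2 fold changes was 2.85, beside 0.01 over all genes tested. The counts were the same without saline replicate 1. For each of the 7 that rose a two-sided exact permutation test gave p = 0.00952, the smallest value possible with 4 against 6 libraries. The groups did not overlap for 8 members, all higher in LPS, where 22.7% of all genes tested had groups apart in that direction and 16.7% in the other.

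**Figure D1:**
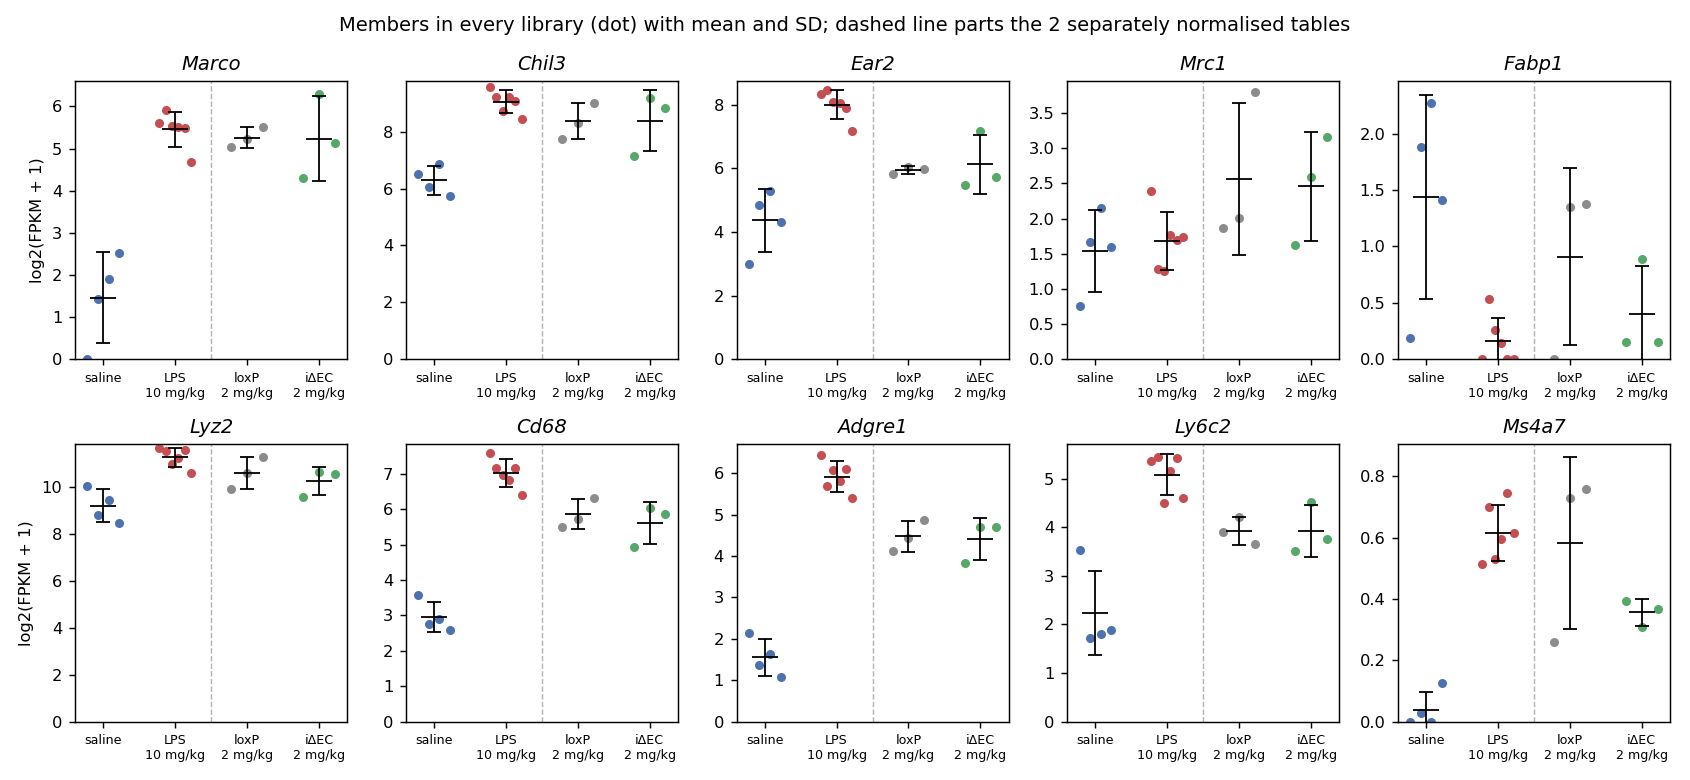
Level of each member, as log2(FPKM + 1), in every library (dots), with the mean and SD of each group, bars running below 0 being cut there. In Marco, Chil3, Ear2, Lyz2, Cd68, Adgre1, Ly6c2 and Ms4a7 all 6 LPS libraries lie above all 4 saline libraries, and the loxP/loxP and iΔEC/iΔEC libraries overlap in every panel.

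Among the resident markers, Marco rose most. Marco read 0, 1.67, 2.76 and 4.72 FPKM in the saline libraries and 47.8, 59.3, 45.4, 44.6, 44.2 and 24.7 in the LPS libraries. Every LPS library was above every saline library, and the lowest of them was replicate 6. The log2 fold change was 4.00 (SE 0.41, limma, adjusted p = 2.23e-05), and the means differed 19.4-fold (30.02-fold without saline replicate 4). Without saline replicate 1 the log2 fold change was 3.51, and with a pseudocount of 0.1 FPKM or with limma-voom on the read numbers 5.11 and 5.40.

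Ear2, the ribonuclease, read 7.04, 27.7, 38.5 and 18.9 FPKM in the saline libraries and 323, 356, 271, 268, 240 and 143 in the LPS libraries, again with no overlap. Its log2 fold change was 3.64 (SE 0.40, adjusted p = 3.41e-05) and the means differed 11.6-fold. It was 3.19 without saline replicate 1. Chil3 was the most abundant resident marker in both groups, with 91.4, 64.97, 115 and 52.3 FPKM after saline and 774, 600, 422, 599, 545 and 350 after LPS. Its log2 fold change was 2.76 (SE 0.27, adjusted p = 1.66e-05), or 6.77-fold between the means.

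Mrc1 did not follow them. It read 0.688, 2.17, 3.43 and 2.01 FPKM in the saline libraries and 4.24, 1.44, 1.38, 2.41, 2.24 and 2.32 in the LPS libraries. The groups overlapped widely, and the highest value of either group was LPS replicate 1 and the lowest saline replicate 1. The log2 fold change was 0.15 with a 95% interval of -0.46 to 0.75 (adjusted p = 0.668), so the interval leaves out the rises seen for Marco, Ear2 and Chil3. Without saline replicate 1 it was -0.11, and with scaling on the endothelial list 0.84 (limma, adjusted p = 0.0684).

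Fabp1 was the member that fell. It read 0.137, 2.70, 3.85 and 1.65 FPKM in the saline libraries and 0, 0.446, 0.199, 0.103, 0 and 0 in the LPS libraries. The groups overlapped at saline replicate 1, whose value rests on 1 read, and all LPS libraries together held 7 reads against 90 in the saline libraries. The log2 fold change was -1.28 (SE 0.33, adjusted p = 0.00725), and the saline mean was 16.7-fold the LPS mean, or 34.6-fold without LPS replicate 2, where the LPS group held 3 reads. Per read on genes the ratio was then 43.03, with an exact 95% interval of 14.3 to 213 for counting error only. A two-sided exact permutation test gave p = 0.0286. Fabp1 was tested only because of its saline level, and without saline replicate 1 the log2 fold change was -1.70. It was -3.03 with a pseudocount of 0.1 FPKM, -3.76 with limma-voom, and -0.59 and no longer called with scaling on the endothelial list.

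**Figure D2:**
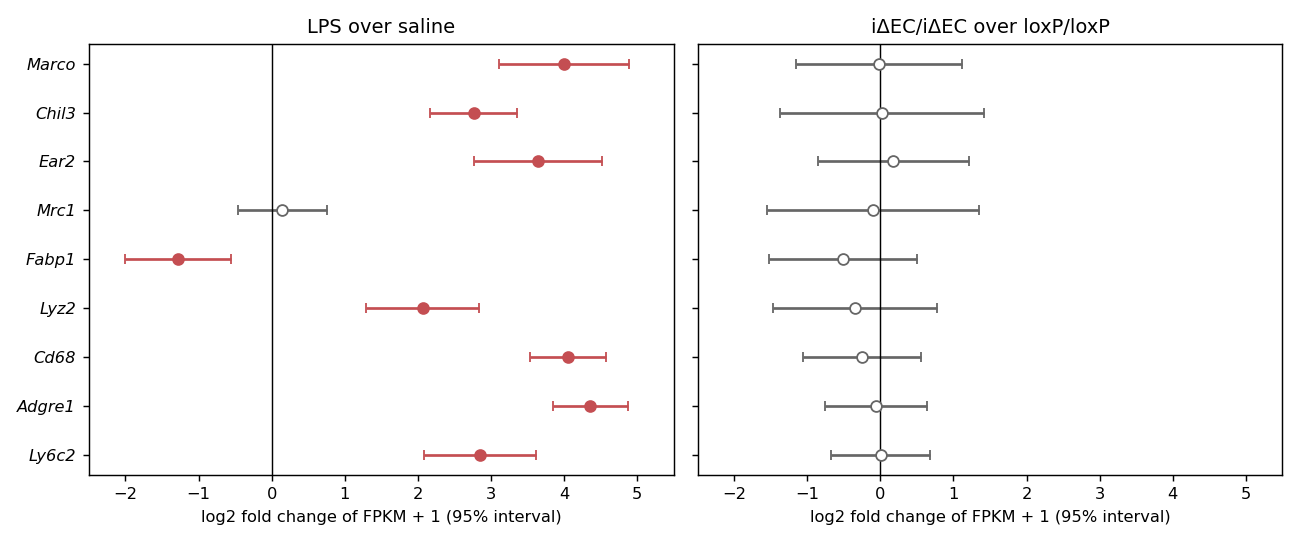
Log2 fold change of FPKM + 1 for the 9 members tested, with 95% intervals from limma, in LPS over saline (left) and iΔEC/iΔEC over loxP/loxP (right). Filled points passed the call; 7 members lie between 2.07 and 4.36 on the left with Mrc1 at 0.15 and Fabp1 at -1.28, and every interval on the right holds 0.

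The transcripts shared by monocytes and macrophages rose in every LPS library. Adgre1 had the largest change of all members on the log2(FPKM + 1) scale, while Marco was ahead with a pseudocount of 0.1 FPKM (5.11 against 4.90) and with limma-voom (5.40 against 5.03). It read 3.43, 1.56, 2.09 and 1.13 FPKM after saline and 85.8, 50.3, 66.8, 54.7, 68.1 and 40.9 after LPS, a log2 fold change of 4.36 (SE 0.23, limma, adjusted p = 4.69e-07) and 29.7-fold between the means. Cd68 read 10.8, 5.75, 6.50 and 5.05 FPKM after saline and 192, 141, 123, 111, 141 and 84.1 after LPS. Its log2 fold change was 4.06 (SE 0.24, adjusted p = 7.30e-07), 18.8-fold between the means. For both genes the highest saline library was replicate 1 and the lowest LPS library replicate 6, and the groups were far apart.

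Lyz2 was the most abundant member in all 4 groups. It read 1075, 453, 711 and 355 FPKM in the saline libraries and 3311, 2954, 2059, 2443, 3093 and 1550 in the LPS libraries. The log2 fold change was 2.07 (SE 0.35, adjusted p = 0.000637), the smallest of the 7 that rose, and the means differed 3.96-fold. Lyz2 is also made by alveolar type II cells and neutrophils. Sftpc, the surfactant protein of type II cells, was read at 1316 ± 550 FPKM in the saline group and fell to 280.1 ± 126 in the LPS group (log2 fold change -2.30, adjusted p = 0.00116). The epithelial list had 1 of its 9 tested genes called higher and 2 lower, beside 11.9% and 6.79% of all genes tested. Its 10 genes summed to 2850, 1360, 2157 and 1116 FPKM in the saline libraries and to 294 to 1039 in the LPS libraries with a median of 755. None of them was at 0 in any library. Their part in the Lyz2 level was not tested.

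Of the markers of recruited cells, Ly6c2 read 10.5, 2.31, 2.51 and 2.69 FPKM after saline and 40.0, 42.7, 21.5, 34.7, 42.2 and 23.4 after LPS. Saline replicate 1 was well above the other saline libraries and still under the lowest LPS library. The log2 fold change was 2.85 (SE 0.35, adjusted p = 7.60e-05), 7.56-fold between the means. It was 3.28 without saline replicate 1, and the means then differed 13.6-fold. Ms4a7 was scarce. It read 0, 0.0203, 0 and 0.0913 FPKM in the saline libraries, from 10 reads in all, and 0.427, 0.623, 0.444, 0.510, 0.676 and 0.531 in the LPS libraries, from 255 reads. The groups did not overlap, and the means differed 19.2-fold. Of the 10 saline reads 8 were in replicate 4, and without it the means differed 79.1-fold. The ratio of Ms4a7 reads per read on genes, 255 against 2, was then 55.3 with an exact 95% interval of 15.2 to 459.5, which covers counting error only. The mean of Ms4a7 over the 10 libraries was under the 0.5 FPKM that a gene needed to be tested. With no filter its log2 fold change was 0.58 (SE 0.07, adjusted p = 0.000437), under the limit of 1, since adding 1 FPKM flattens genes at this level. Of the 5 resident markers 3 rose, and of the 2 recruited markers Ly6c2 rose, beside 11.9% of all genes tested. With so few genes the counts do not compare resident with recruited markers, and the wider lists are given further on.

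Several members have near copies in the genome. In the transcripts of GENCODE M21, 41.5% of the 50-base words of Ear2 also occur in another gene, Ear10 foremost, and the share was 26.9% for Chil3, 15.4% for Lyz2 and 14.4% for Ly6c2. How reads that fit several genes were treated is not given in the sources used here, so these 4 levels are uncertain to that extent. The copies were read separately. Ear1, the family member in the alveolar macrophage list, read 0.621, 4.89, 9.74 and 2.92 FPKM after saline and 0.360 to 1.60 after LPS, and fell (log2 fold change -1.26, adjusted p = 0.0277). On the FPKM scale Ear1 was on average 16.8% of Ear2 in the saline libraries and 0.329% in the LPS libraries. Lyz1, the lysozyme of Paneth cells, had a log2 fold change of -0.95 (adjusted p = 0.0312) and Ly6c1, which is abundant in ECs, one of 0.94 (adjusted p = 0.0313), both short of the limit of 1. Leaving out saline replicate 1 put Ly6c1 past it (1.16, adjusted p = 0.0125). Ly6c2 rose from 0.777% to 3.76% of the Ly6c1 level. Ear6 had a log2 fold change of 0.60 (adjusted p = 0.0387), and Ear10 and Chil4 were too low to be tested, with at most 0.557 and 0.0585 FPKM in any library.

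The order of the members by mean FPKM differed between the groups. After saline it ran Lyz2, Chil3, Ear2, Cd68, Ly6c2, Marco, Fabp1, Mrc1, Adgre1 and Ms4a7. The neighbours from Ear2 to Adgre1 overlapped in range, 5 of them with means between 2.05 and 4.51 FPKM. After LPS it ran Lyz2, Chil3, Ear2, Cd68, Adgre1, Marco, Ly6c2, Mrc1, Ms4a7 and Fabp1. Adgre1 went from the ninth place to the fifth and Fabp1 from the seventh to the last. In all 6 LPS libraries Cd68 was above Adgre1, and the ranges of neighbours from Chil3 to Ly6c2 overlapped although nearly every library kept the order. Adgre1 was 28.4% ± 4.59 of Cd68 after saline and 46.7% ± 6.26 after LPS, and Mrc1 was 34.1% ± 19.7 of Cd68 after saline and 1.81% ± 0.685 after LPS, both on the FPKM scale.

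Wider marker lists were described by their counts, beside 11.9% called higher and 6.79% lower over all genes tested. Of the pan list, genes common to monocytes and macrophages, 14 of 14 were called higher, with a median log2 fold change of 4.36 beside 0.01 over all genes. The largest were Aif1, an actin-binding protein, at 5.24, Fcer1g, the common Fc receptor gamma chain, at 5.12, the integrin Itgam at 5.08 and Csf1r, the receptor for CSF1, at 4.81. The smallest were Laptm5 at 3.15 and Mpeg1 at 3.67. Fcer1g was 5.71 without saline replicate 1. In the other saline libraries Aif1 averaged 0.263 FPKM and Msr1, also of this list, 0.190, under the 0.5 FPKM of the filter. Aif1 and Msr1 were thus tested only because of their LPS level. The list summed to 464, 142, 149 and 109 FPKM in the saline libraries and to 2171 to 4969 with a median of 3670 after LPS.

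The alveolar macrophage list moved in both directions. Of its 15 genes 13 were tested, 5 rose and Ear1 fell, with a median of 0.48. Bhlhe41 was not tested, as its mean over the libraries was under the filter. It read 0.797 ± 0.132 FPKM after saline and 0.236 ± 0.105 after LPS, with no overlap, so count and median leave out a lower gene. The largest changes were Itgax (CD11c) at 2.95, Lpl (lipoprotein lipase) at 2.38, Siglec1 at 2.35 and Ctsk (cathepsin K) at 1.77, and the smallest Krt79 at -0.05 and Plet1 at -0.14. Siglec1 averaged 0.490 ± 0.124 FPKM after saline, so it was tested only because of its LPS level. Lpl, which other lung cells also express, was 193 ± 51.1 FPKM after LPS and made up most of the list's sum in each LPS library. In saline replicates 2 and 3 it was 26.3 of 59.3 and 27.9 of 75.9 FPKM. The sum had a median of 67.6 FPKM after saline and 269 after LPS. Siglecf, the lectin by which alveolar macrophages and eosinophils are sorted, had a log2 fold change of -0.53 (adjusted p = 0.0402), short of the limit, and was read at 1.30 ± 0.712 and 0.551 ± 0.236 FPKM. Pparg, the nuclear receptor on which alveolar macrophages depend, rose by 1.36 from 1.06 ± 0.795 FPKM (1.60 from 0.674 ± 0.271 without saline replicate 1).

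Monocyte lists moved mostly upward. In the classical monocyte list 14 of 15 genes were called higher, with a median of 3.18, led by Cd14, the LPS co-receptor, at 5.76, Hp (haptoglobin) at 4.72, the lectin Clec4e at 4.34 and Ifitm6 at 4.13. Saline replicate 1 was the highest saline library for these 4, and without it they were 6.94, 5.46, 5.14 and 4.88. That library also had the highest neutrophil list sum of the saline group. The part of neutrophil transcripts in these 4 changes was not tested. Ccr2, the receptor that draws these cells from the marrow and blood, rose by 2.32. Fn1 at 1.36 was the smallest call. In the nonclassical monocyte list 7 of 8 were called higher, with a median of 3.64, led by Treml4 at 5.55, Cd300e at 4.66, Spn at 3.85 and Nr4a1 at 3.80. Ace, which ECs of the lung express strongly, read 639.8 ± 29.4 and 712 ± 149 FPKM and was not called (0.13), and Eno3 at 2.49 was the smallest call.

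In the list of interstitial and monocyte-derived macrophages 7 of 12 genes were called higher, with a median of 2.32. C1qb (5.86) and C1qa (5.11), chains of complement C1q, and the chemokine Ccl12 (4.65) were among the largest changes, and Tmem119 (0.06) and Trem2 (0.59) least. Ccl12 went from 0.0210 ± 0.0421 to 25.9 ± 8.75 FPKM. With at most 1 read in a saline library, it was tested only because of its LPS level, and the size of its change is not exact. Trem2, at 0.162 ± 0.0606 FPKM after saline, was also tested only through its LPS level. Without saline replicate 1 the counts of the 5 lists were the same, and the medians were 0.30 (alveolar), 3.31 (classical), 3.88 (nonclassical), 2.32 (interstitial) and 4.74 (pan).

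**Figure D3:**
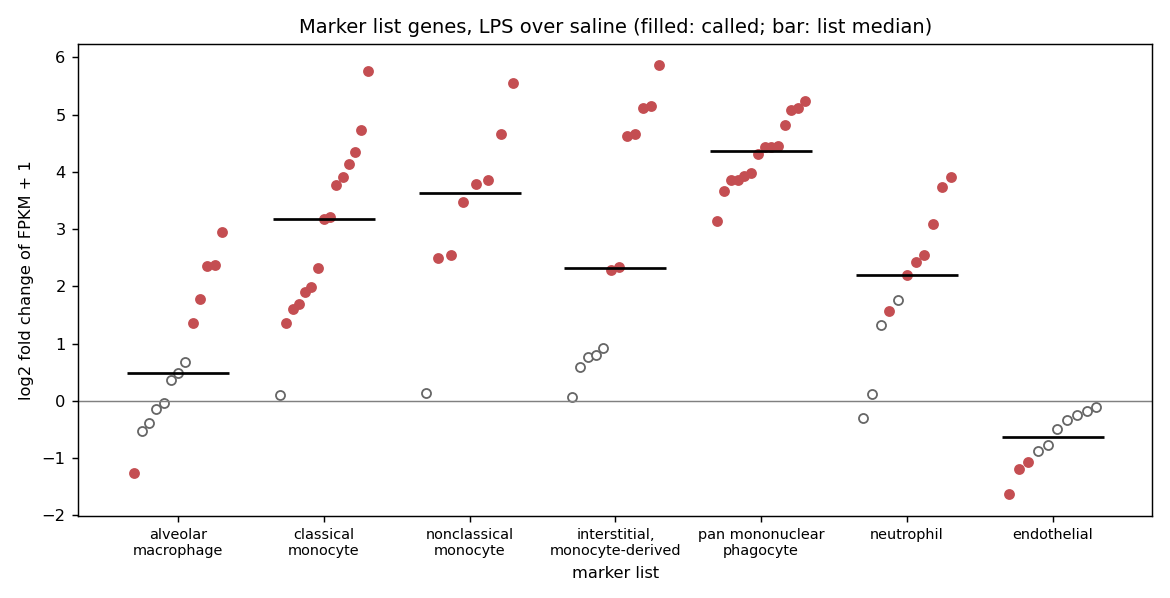
Log2 fold change of FPKM + 1 in LPS over saline for each tested gene of 7 marker lists, ordered by size within a list, with filled points for called genes and a bar at the list's median. The pan list lies wholly above 3 (median 4.36), while the alveolar macrophage list spreads from -1.26 to 2.95 around 0.48.

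Transcripts of other leukocytes were measured beside these. The shares over all genes tested were 11.9% higher and 6.79% lower, and a single call in a short list says little beside them. In the neutrophil list 7 of 11 genes were called higher and none lower, and its sum, led by S100a9 in every library, had a median of 205 FPKM after saline (85.5 without saline replicate 1) and 2645 after LPS. S100a9 had a log2 fold change of 3.73, and 4.65 without that library. 1 of its genes was at 0 in saline replicate 4 and none in the other saline and LPS libraries. Without saline replicate 1 the count was 9 of 11. In the eosinophil list only Prg2 reached the filter (log2 fold change -0.68, limma, adjusted p = 0.345, and -0.08 without saline replicate 1). The sum of that list was at most 14.6 FPKM after saline (4.33 without that library) and 5.07 after LPS. Clec9a, in the dendritic cell list, had a log2 fold change of -0.997 and did not meet the limit, and 1 of 4 tested genes of that list was called higher. In the lymphocyte list 2 of 5 were called lower, with Cd79a at -1.57, and 0 without saline replicate 1. In the stromal list 1 of 6 was lower, its most abundant gene Acta2 at 0.81 not called, and in the endothelial list 3 of 10 were lower, its most abundant gene Cldn5 at -0.50 not called. Without saline replicate 1 the dendritic cell list had 2 genes higher and 1 lower, the epithelial list 1 higher and 1 lower and the stromal list 1 higher and 0 lower. Clec9a (-1.29) was then called lower and Acta2 (1.53) higher, and Cd79a (-1.43, adjusted p = 0.0635) was not called. The part of the neutrophil transcripts in the levels of Chil3, Lyz2, Cd14, Hp, Clec4e and Ifitm6 was not tested, nor was that of eosinophil transcripts in the level of Ear2.

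To see which members moved more or less than phagocyte transcripts in general, the mean log2(FPKM + 1) of the pan list was subtracted in each library. On this scale Adgre1 differed by 0.05 between LPS and saline, Cd68 by -0.25, Marco by -0.31 and Ear2 by -0.66, all with overlapping groups. Ly6c2 differed by -1.46, Chil3 by -1.55, Lyz2 by -2.24, Ms4a7 by -3.73, Mrc1 by -4.16 and Fabp1 by -5.59, each with every LPS library below every saline library. That is 6 of 10 members, and 98.5% of all genes tested lay apart in the same direction, so the count is no particular trait of the members. For Fabp1 and Ms4a7 the difference is mostly that of the list, since both lie near the lower end of the scale.

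For 3 of the 4 members with overlapping groups, Marco, Ear2 and Cd68, the overlap rested on saline replicate 1. Without it, 9 of 10 members lay below the saline libraries (99.1% of all genes tested), with Marco at -1.14, Ear2 at -1.46 and Cd68 at -0.39, and Adgre1 was the member whose groups still overlapped, at -0.09. The values in saline replicate 1 itself were -3.95 for Marco and -0.95 for Ear2. In the LPS libraries the SD of these relative values ran from 0.0756 (Cd68) and 0.121 (Lyz2) to 0.459 (Fabp1) and 0.463 (Mrc1).

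**Figure D4:**
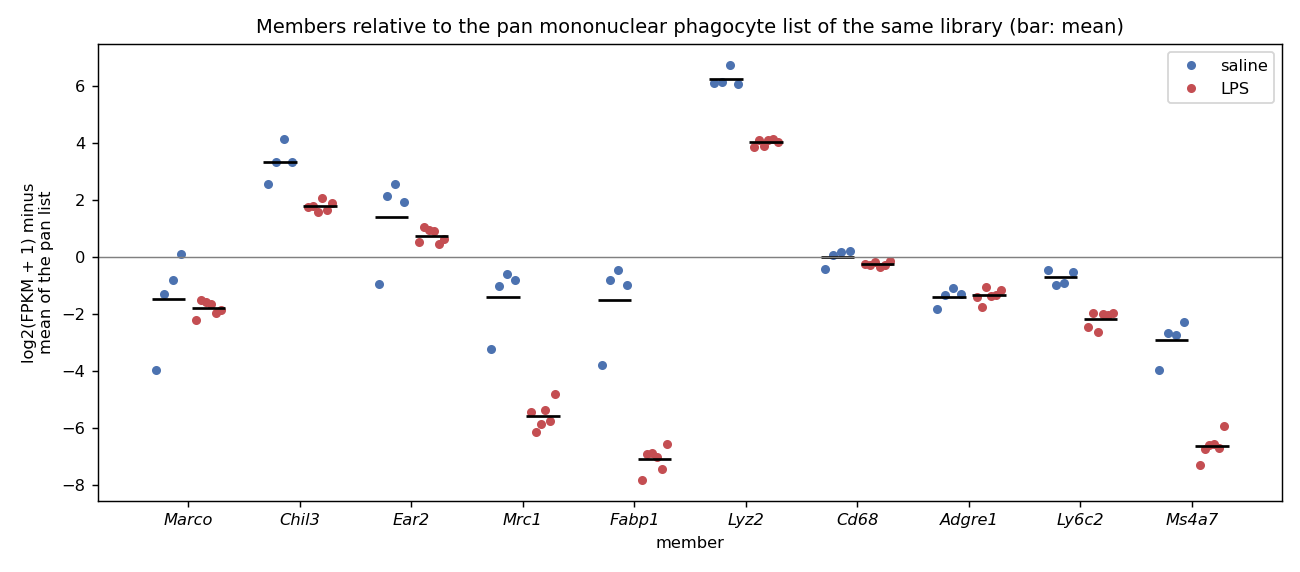
Log2(FPKM + 1) of each member minus the mean of the pan mononuclear phagocyte list in the same library, for the saline and the LPS group (dots: libraries, bars: means). Adgre1 keeps its place (difference 0.05), and Lyz2 and Chil3 move down by 2.24 and 1.55. Saline replicate 1 is the lowest saline dot of every member except Lyz2 and Ly6c2.

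Members also varied together within groups. Correlations of log2(FPKM + 1) were taken over the 16 libraries after the mean of each group had been removed, as a description, since the libraries share their scaling and their depth. Lyz2, Cd68, Adgre1 and Chil3 went together in all 6 pairs (Pearson r 0.81 to 0.94). Marco, Ear2 and Fabp1 formed another set (r 0.67 to 0.83 in 3 pairs), and between Lyz2, Cd68 and Adgre1 on the one side and this set on the other r was -0.05 to 0.17 in 9 pairs. Chil3 stood between, with r of 0.40 to Marco, 0.47 to Ear2 and 0.34 to Fabp1. The separation rested on 1 library. Without saline replicate 1 the first set kept r of 0.85 to 0.94, the second had 0.38 to 0.71, and between them, Chil3 included, r was 0.45 to 0.73 in 12 pairs. Ly6c2 and Fabp1 had r of -0.41 over 16 libraries and 0.25 without saline replicate 1.

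**Figure D5:**
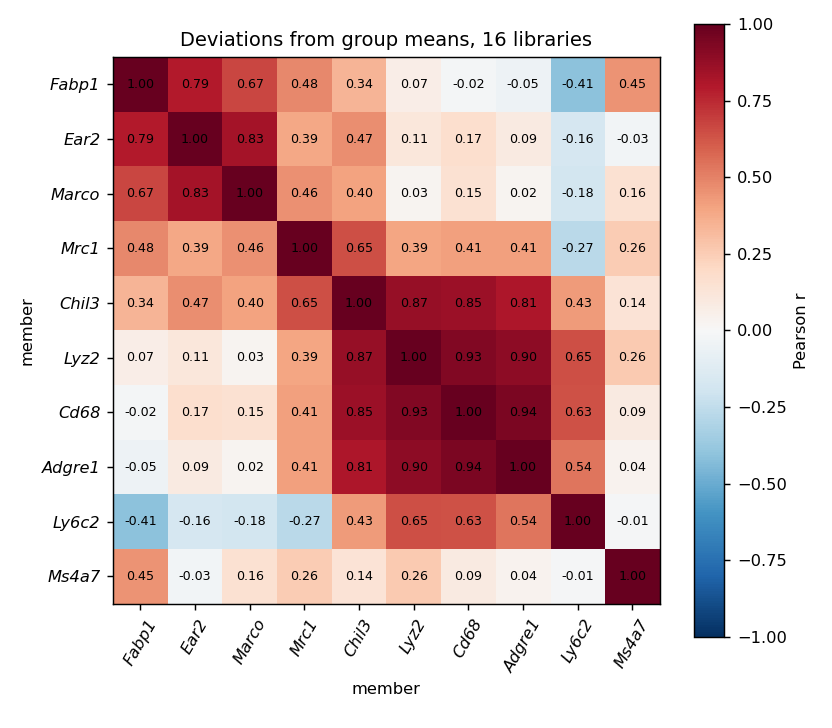
Pearson r between members over 16 libraries, from log2(FPKM + 1) after subtraction of group means, with red for positive and blue for negative values. A pair of blocks appears, Fabp1, Ear2 and Marco (0.67 to 0.83) and Chil3, Lyz2, Cd68 and Adgre1 (0.81 to 0.94), with Chil3 at 0.34 to 0.47 to the first block, and without saline replicate 1 r between the blocks was 0.45 to 0.73.

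The genes most like each member by the same measure were taken from 12320 genes over all 16 libraries. These neighbours changed with 1 library: without saline replicate 1, 8 of the 30 were kept, and Lyz2 alone had the same closest gene. For Lyz2 they were Ccl6 (r = 0.970), Siglece and Pparg, for Cd68 Cd44 (0.974), Cd80 and Tnfrsf1b, and for Adgre1 Gnpda1 (0.957), Hk2 and Myo1f. Ccl6 was also among those of Chil3, after F7 (0.926) and Lilra6. For Ly6c2 they were Arpc2 (0.948), Emd and Ifitm6, the last a gene of the classical monocyte list. Mrc1 was closest to Naif1 (0.903), followed by Atp6v0d2 and Plet1, both of the alveolar macrophage list, and Fabp1 to Smim6 (0.870), Ear1 (0.842) and Ttc4. Marco was closest to Ccdc97 (0.860) and Ear2 to Etfrf1 (0.939). Ms4a7, with its few reads, had no gene above 0.733 (Bivm).

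In the second experiment the question was whether loss of Fgfr1 from ECs altered these transcripts under 2 mg/kg LPS. No member differed beyond the spread between libraries. limma called 0 of 14944 genes higher (0%) and 0 lower (0%), with 663 genes (4.44%) at an unadjusted p under 0.05, and limma-voom on the read numbers also called 0, with 614 at an unadjusted p under 0.05. Of all genes tested 6.1% had iΔEC/iΔEC libraries all above and 4.07% all below the loxP/loxP libraries, and all 10 members overlapped. With 3 against 3 libraries an exact permutation test cannot go under 0.1. These fits, and the intervals given below, treat the libraries as unpaired.

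Lyz2 read 971, 1581 and 2485 FPKM in loxP/loxP and 764, 1596 and 1516 in iΔEC/iΔEC mice. Its log2 fold change was -0.35 with a 95% interval of -1.47 to 0.77. Cd68 read 44.5, 52.2 and 79.4 against 29.7, 64.0 and 57.1 FPKM, a difference of -0.25 (-1.06 to 0.56). Adgre1 read 16.3, 20.8 and 28.0 against 13.2, 25.0 and 25.0 FPKM, a difference of -0.06 (-0.76 to 0.64). In all 3 genes replicate 1 was the lowest library of both genotypes.

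Marco read 31.6, 36.3 and 45.0 FPKM in loxP/loxP and 18.6, 77.2 and 34.0 in iΔEC/iΔEC mice, a log2 difference of -0.02 (-1.15 to 1.11). Ear2 read 55.9, 65.6 and 61.9 against 43.2, 145 and 52.4 FPKM, a difference of 0.18 (-0.85 to 1.21). Chil3 read 216, 321 and 523 against 143, 582 and 458 FPKM, a difference of 0.02 (-1.37 to 1.42). In these 3 genes iΔEC/iΔEC replicate 2 was the highest of the 6 libraries and replicate 1 the lowest, so the spread within that genotype exceeded the difference between genotypes.

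Mrc1 read 2.63, 3.02 and 12.98 FPKM in loxP/loxP and 2.07, 5.04 and 7.95 in iΔEC/iΔEC mice, a log2 difference of -0.10 (-1.55 to 1.36), and was highest in replicate 3 of both genotypes. Fabp1 read 0, 1.54 and 1.59 against 0.110, 0.853 and 0.111 FPKM, a difference of -0.51 (-1.52 to 0.50), from 30 and 10 reads. Ly6c2 read 14.04, 17.6 and 11.5 against 10.4, 22.0 and 12.5 FPKM, a difference of 0.003 (-0.68 to 0.68). Ms4a7, too low to be tested, read 0.198, 0.656 and 0.692 against 0.314, 0.238 and 0.290 FPKM. The adjusted p in limma was 0.960 to 0.999 for the 9 tested members. These intervals are wide: for Chil3, Mrc1 and Marco they hold a change of more than 2-fold in either direction.

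No gene of the phagocyte lists was called between the genotypes, and the medians of their log2 fold changes were -0.11 (alveolar macrophage), -0.10 (classical monocyte), 0.09 (nonclassical monocyte), -0.12 (interstitial and monocyte-derived) and -0.13 (pan), beside 0.01 over all genes. Relative to the pan list all 10 members overlapped as well. The medians of other lists were -0.45 for neutrophil, -0.70 for epithelial and 0.23 for endothelial genes. Within same-numbered pairs the mean log2 level of the epithelial list was lower in iΔEC/iΔEC libraries in 3 of 3 pairs (-0.84, -0.38 and -0.94), and so were those of the dendritic cell and lymphocyte lists. That of the endothelial list was higher in 3 of 3 (0.26, 0.0824 and 0.39). The pan list was lower in 2 of 3 pairs, and no member moved 1 way in all 3. With only 3 pairs a shared direction in all 3 is not rare by chance. The share of all genes that had one was not counted, so these directions are no result about genotype. Among the near copies Lyz1 read 14.2, 28.7 and 40.7 FPKM in loxP/loxP and 6.25, 13.2 and 12.6 in iΔEC/iΔEC mice, without overlap, with a log2 fold change of -1.25 (adjusted p = 0.960).

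The order of the members in the second experiment ran Lyz2, Chil3, Ear2, Cd68, Marco, Adgre1, Ly6c2, Mrc1, Fabp1 and Ms4a7 in both genotypes. Much of this order lay within the spread. In the loxP/loxP group 5 of 9 pairs of neighbours overlapped, Ear2 and Cd68 (61.1 ± 4.89 and 58.7 ± 18.3 FPKM), Cd68 and Marco, Adgre1 and Ly6c2, Ly6c2 and Mrc1, and Fabp1 and Ms4a7. In the iΔEC/iΔEC group 6 of 9 did, and the pairs without overlap were Lyz2 and Chil3, Ly6c2 and Mrc1, and Mrc1 and Fabp1. Fabp1 was above Ms4a7 in 1 of 3 libraries there. Marco was above Adgre1 in all 6 libraries of this experiment, and in the LPS group of the first experiment Adgre1 was above Marco in 5 of 6. Dose, genotype and normalisation differ between the experiments, so this was not compared by a test.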

How the data were processed

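RNA-seq had been made from CD31+ CD45- cells of mouse lung (4 saline, 6 LPS, 3 Fgfr1 loxP/loxP and 3 Fgfr1 iΔEC/iΔEC libraries). Reads were aligned to GRCm38 with HISAT2 (2.0.5) and counted with featureCounts (1.5.0-p3) by the authors, who deposited FPKM in 2 tables. Strandedness and the treatment of reads with several alignments are not given in the sources used here. Multiplied by gene length and by an effective size of each library, the values gave whole read numbers for 100% of genes (within 0.02). Summed per library, these were 13478726 to 19043015 reads. At low levels the precision is set by these reads, which are not independent molecules.

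On log2(FPKM + 1), genes averaging 0.5 FPKM or more were compared with limma 3.58.1 in R 4.3.3 (eBayes with trend), each table on its own, with Benjamini-Hochberg adjustment over all genes tested, and called where the adjusted p was no more than 0.05 and the log2 fold change 1 or more in size. This scale understates changes of low genes. In the first experiment a gene averaging under 0.5 FPKM after saline was tested only if its LPS level was higher. List counts and medians that include such genes lean upward. The limma script was tested on simulated data. Single values were compared by exact permutation tests (scipy 1.17.1). The libraries were taken as separate samples from their labels, and p-values measure the spread between libraries.

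The members and the marker lists were chosen with earlier results of these data known. Named genes were the 10 members, their near copies, Fgfr1, Ptprc and Pecam1, for each phagocyte list the 4 largest calls and the 2 smallest tested changes in LPS over saline, for other lists the most abundant gene, and the 3 genes most like each member. Some genes that this rule names are not reported here. Siglecf, Pparg, Ccr2, Spi1, Msr1 and Bhlhe41 were added after their values were seen. So were the correlations and the values relative to the pan list without saline replicate 1. Same-numbered libraries of the second experiment deviated together (r over genes 0.248, 0.177 and 0.187), and those of the first did not (r -0.209 to 0.0972). The numbers of the second were therefore taken to pair its libraries, though the labels do not say so. With 3 libraries in a group this is weak evidence. The fold changes and intervals given are from the fit without pairs. Alternatives were another pseudocount, filter and scaling, limma-voom, a replicate block and leaving out each library. Figures were drawn with matplotlib 3.10.9 and tables handled with pandas 2.3.3 and numpy 2.4.6 in Python 3.11.15.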

Additional observations from a re-analysis of the deposited data

Results flagged for a closer look

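Among 32 sets of values (10 members and 6 marker list means in the saline and the LPS group) 3 held a single library at a distance from its group, where chance gives about 1.6. Ly6c2 in saline replicate 1 was 3.52 on the log2(FPKM + 1) scale, with the other saline libraries at 1.73 to 1.88. The classical monocyte list mean in the same library was 3.70, with the others at 1.97 to 2.21. Marco in LPS replicate 6 was 4.68, with the other LPS libraries at 5.498 to 5.91. No cause of these values was tested.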

How the results depend on the processing

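In LPS over saline, 7 members were called higher under every alternative run. Genes called higher (1768) and lower (1011) became 4399 and 3529 with no limit on the fold change, and 5139 and 149 with scaling on the endothelial list, which moved the median of all genes to 0.70. The lower count alone moved to 1840 with a pseudocount of 0.1 FPKM and to 2008 with limma-voom. Scaling on total reads gave 1377 and 1447, with a median of all genes of -0.14, and quantile normalization 1366 and 1326. Members called lower were 0 with a filter at a mean of 1 FPKM, where Fabp1 was not tested, and 0 with endothelial scaling, where Fabp1 was -0.59 (adjusted p = 0.181). Leaving out each library in turn gave 1641 to 1947 genes higher and 909 to 1105 lower, and Mrc1 ranged from -0.11 to 0.35, the negative value being without saline replicate 1. Over all settings Mrc1 reached 0.84 with endothelial scaling (adjusted p = 0.0684, uncalled), where the 7 members called higher were 2.76 (Lyz2) to 5.05 (Adgre1). With a pseudocount of 0.1 FPKM and with limma-voom Marco was 5.11 and 5.40, and Fabp1 -3.03 and -3.76. Adgre1 was 5.03 with limma-voom.

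With a replicate block LPS over saline gave 1925 higher and 1063 lower, where the numbers are names only. In iΔEC/iΔEC over loxP/loxP, where they were taken to pair the libraries, the block gave 0 and 0 and changed no call of a member. Every other alternative there also gave 0 calls. Small differences turned sign: Chil3 was -0.0454 with scaling on total reads and -0.22 with endothelial scaling, Ly6c2 -0.0605 and -0.24 in the same settings and -0.0192 with quantile normalization, and Ear2 -0.0638 with endothelial scaling. Leaving out 1 library each gave ranges of -0.45 to 0.52 for Mrc1, -0.55 to 0.45 for Marco, -0.37 to 0.64 for Chil3, -0.35 to 0.51 for Ear2, -0.46 to 0.0846 for Cd68, -0.30 to 0.21 for Ly6c2 and -0.24 to 0.23 for Adgre1, all uncalled. The causes were not tested. Depth limits Ms4a7 and Fabp1, which rest on few reads.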
